A study of Mus musculus with 3 samples.

Results

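The circRNAs described here came from 8 host genes of intracellular signaling: Plcg2, Prkca, Adcy9, Pde5a, Rps6kb1, Tsc2, Map3k7 and Nfkb1. Every circRNA listed under one of these host names was taken, which gave 9 circRNAs of the 563 in the deposited table, whose circRNAs come from 459 named hosts. Pde5a gave 2 circRNAs and each of the other hosts gave 1. A circRNA is a covalently closed RNA that arises by back-splicing, in which the 3′ end of an exon is joined to the 5′ end of that exon or of one before it, and only a read that crosses this join was counted for it. The values are therefore levels of circles, not of the linear mRNAs of the host genes.

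RNA was extracted from exosomes, small vesicles that cells release, which were isolated from the plasma of wild type C57BL/6 mice by differential centrifugation. The study compared model mice given electroacupuncture (EA), model mice without EA, and normal mice, with 1 library for each group. Model mice were male mice fed a high-fat diet for 6 weeks and then injected with streptozotocin, which kills the insulin-secreting β cells of the islets, and the normal mice received basic forage. The EA course took 4 weeks, with 12 sessions of 15 minutes each at a frequency of 2 Hz. Each group held 10 mice, and whether a library came from 1 mouse or from a pool is not given in the sources.

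The sample titles and the supplementary sheets of the study assign the 3 libraries to different groups. By the titles, library C1 is model + EA, library B1 is model and library A1 is normal, and these groups are used below. By the sheets, C1 is normal, B1 is model + EA and A1 is model, so each library is named by its code and each direction is also given under the sheets' names. The pathway results in the main text of the paper go with the sheets. They list Adcy9 and Pde5a among hosts raised by EA, and Plcg2, Prkca, Rps6kb1, Tsc2, Map3k7 and Nfkb1 among those lowered. By the titles, the circles of Adcy9 and of Pde5a exon 2 were lower in model + EA than in model. Those of Plcg2, Prkca, Tsc2, Map3k7 and Nfkb1 had no reads in either. Reads of a library are the same under both assignments. Because each group had 1 library, no difference could be set against the spread between mice, and p-values were not computed. The 95% intervals are exact and describe counting error alone, as reads without molecular identifiers are not independent molecules. A lower circle level in a plasma sample does not tell fewer vesicles of a kind apart from less of the circle per vesicle.

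The hosts encode parts of several pathways that carry signals inside the cell. Phospholipase C splits a membrane lipid into diacylglycerol, which recruits protein kinase C, and inositol trisphosphate, which releases calcium, while adenylyl cyclases make cAMP and phosphodiesterases break down cyclic nucleotides. Tsc2 restrains mTOR, the kinase that turns on ribosomal S6 kinase when nutrients and insulin are present, and Map3k7 (TAK1) links cytokine and Toll-like receptors to NF-kB, the transcription factor family to which Nfkb1 belongs. In insulin-responsive tissues and islets these pathways are known for their parts in insulin secretion, insulin signaling and inflammation.

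The back-splice junction is the only part of a circle that its linear transcript lacks, so the junctions that identify these circles are shown first. Each line gives the last 25 bases of the circle in lower case followed by its first 25 bases in capitals, 5′ to 3′ on the strand of the gene, from GENCODE M21 transcripts on GRCm38.
Plcg2 (chr8:117555975-117558116, + strand, exons 3 to 5): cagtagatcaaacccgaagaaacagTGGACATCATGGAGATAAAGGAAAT
Prkca (chr11:108012627-108014381, − strand, exons 6 to 8): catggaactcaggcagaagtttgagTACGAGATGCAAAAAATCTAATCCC
Pde5a exon 2 (chr3:122747889-122748477, + strand): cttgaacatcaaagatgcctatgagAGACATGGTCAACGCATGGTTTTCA
Pde5a exons 8 to 12 (chr3:122794260-122818067, + strand): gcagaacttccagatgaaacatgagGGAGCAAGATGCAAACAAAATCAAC
Rps6kb1 (chr11:86532772-86535460, − strand, exons 2 to 4): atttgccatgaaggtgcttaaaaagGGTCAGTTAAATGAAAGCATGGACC
Tsc2 (chr17:24607437-24619570, − strand, exons 15 to 25): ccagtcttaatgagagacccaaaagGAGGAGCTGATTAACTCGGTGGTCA
Map3k7 (chr4:32010316-32017152, + strand, exons 14 to 16): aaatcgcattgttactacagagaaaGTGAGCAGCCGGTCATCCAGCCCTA

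The remaining 2 circles have no junction printed. The Nfkb1 circle (chr3:135655500-135669339, − strand, exons 2 to 6) starts in the 5′ UTR, and only its last 25 bases, which are coding, are shown: caagaaatcctacccacaggtcaaa. The Adcy9 circle (chr16:4285593-4286065, − strand) was typed as sense overlapping rather than exonic by the authors. It overlapped 0 exons of GENCODE M21, lay 1463 bases past the 3′ end of Adcy9 there, and fell inside the longer RefSeq gene span, 707 bases from its 3′ end.

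The libraries differed in how their reads were spread. Junction reads added up to 2913 in C1, 4372 in B1 and 4125 in A1. They came from 320 detected circRNAs in C1, 140 in B1 and 157 in A1, and the median detected circRNA had 7 reads in C1, 33.5 in B1 and 25 in A1. The floor behind every fold bound was 3 reads, close to the one-sided 95% limit of a zero count, which is 0.103% of the reads in C1, 0.0686% in B1 and 0.0727% in A1. Of 23 erythroid marker genes, 9 hosted 12 circles, with 91 reads in C1, 50 in B1 and 17 in A1. Of these circles 10 were detected in C1, 3 in B1 and 3 in A1. The Hbb-bs circle gave 43 of the B1 reads and was found in B1 alone. The Hemgn circle gave 11 of the A1 reads and was found in A1 alone. Of 16 platelet markers only Gp6 hosted a circle, with 0 reads in C1, 0 in B1 and 37 in A1. No circle came from the 7 exosome markers searched, Cd63, Cd9 and Cd81 among them, or from the markers of endothelium, islets, hepatocytes and the lymphoid and myeloid lineages, so the table does not identify the cells of origin. The part of these differences in the results below was not tested.

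The 9 circles together took the largest share of reads in A1. Their hosts were chosen with earlier results of these data known. The shares here and the counts of calls below are therefore descriptions, not independent results. They held 24 reads or 0.824% of all junction reads in C1 (95% interval 0.529 to 1.22%), 106 reads or 2.42% in B1 (1.99 to 2.92%) and 186 reads or 4.51% in A1 (3.90 to 5.19%). The 3 intervals did not overlap. They describe counting error alone, with 1 library for each group, so they do not show a difference between groups. In each of C1 and B1 3 of the 9 circles were detected, against 6 in A1, and 5 of those 6 were detected in A1 alone. Of all 563 circRNAs, 56.8% were detected in C1, 24.9% in B1 and 27.9% in A1, and 24.0% had reads in A1 alone.

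**Figure D1:**
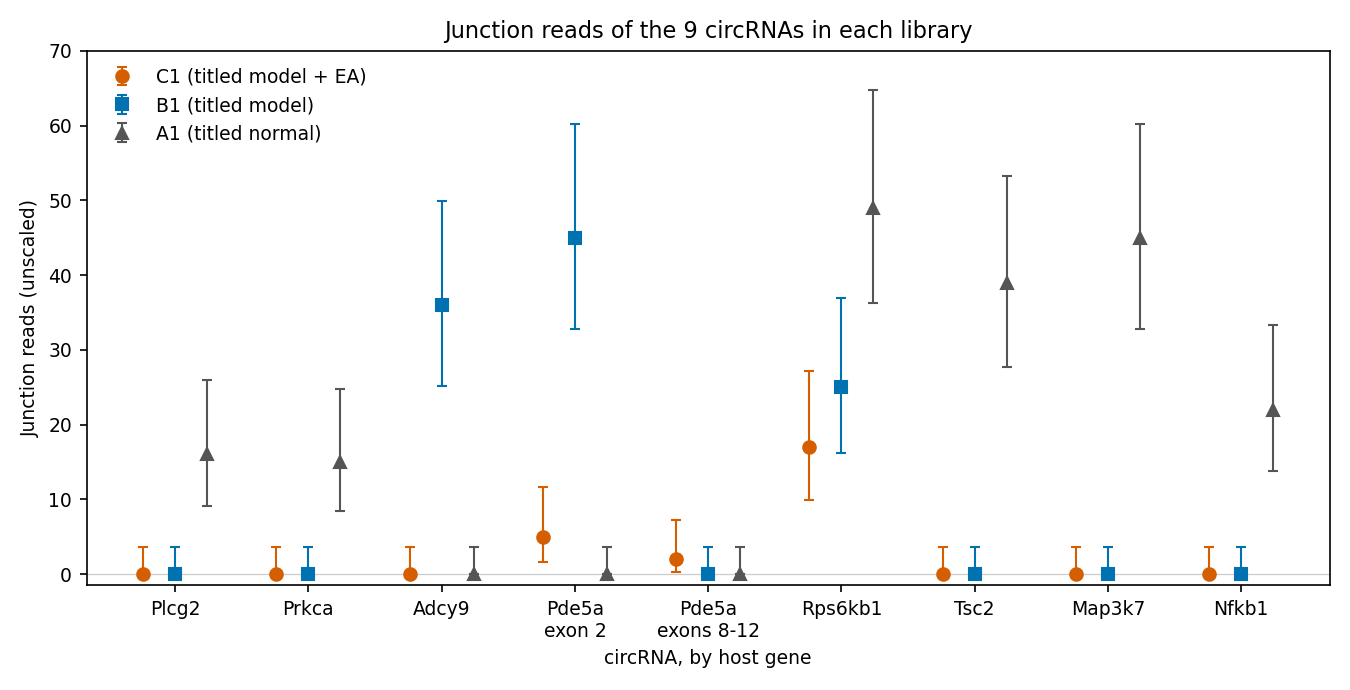
Junction reads of the 9 circRNAs (x axis, by host gene) in library C1 (titled model + EA), B1 (titled model) and A1 (titled normal). Points are unscaled read counts and bars are exact two-sided 95% Poisson intervals for counting error only, which reach 3.69 reads for a count of 0. Plcg2, Prkca, Tsc2, Map3k7 and Nfkb1 had reads in A1 alone, and Adcy9 in B1 alone.

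In the phospholipase C and diacylglycerol branch, both circles were found in A1 alone. Plcg2 encodes phospholipase C gamma 2, the isoform used by B cell receptors and by the platelet collagen receptor Gp6. Its circle had 0 reads in C1, 0 in B1 and 16 in A1, or 0.388% of the A1 reads (0.222 to 0.629%). Prkca encodes the calcium-dependent protein kinase C alpha, which diacylglycerol recruits to membranes. The Prkca circle had 0 reads in C1, 0 in B1 and 15 in A1, or 0.364% (0.204 to 0.599%). Both stood in the lower part of the A1 library, where 71.3% of detected circRNAs had more reads than Plcg2 and 75.8% had more than Prkca.

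The cyclic nucleotide circles had no reads in A1, where 27.9% of all circRNAs of the table were detected. Adcy9 encodes a membrane adenylyl cyclase that makes cAMP. Its circle had 0 reads in C1, 36 in B1 and 0 in A1, or 0.823% of the B1 reads (0.577 to 1.14%). Pde5a encodes the cGMP-specific phosphodiesterase, the target of sildenafil. Its exon 2 circle had 5 reads in C1, 45 in B1 and 0 in A1, which is 0.172% of the C1 reads (0.0558 to 0.400%) and 1.03% of the B1 reads (0.752 to 1.37%). It ranked 21 among the 140 circRNAs of B1, tied with circRNAs of the same count, and had the most reads of the 9 circles there. The other Pde5a circle, of exons 8 to 12, had 2 reads in C1, 0 in B1 and 0 in A1, so its level was at or under the detection floor in all 3 libraries.

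The mTOR branch held the only circle of the 9 that was found in all 3 libraries. Rps6kb1 encodes ribosomal S6 kinase, which promotes protein synthesis downstream of mTOR. Its circle had 17 reads in C1, 25 in B1 and 49 in A1, which is 0.584% of the reads in C1 (0.340 to 0.933%), 0.572% in B1 (0.370 to 0.843%) and 1.19% in A1 (0.880 to 1.57%). As shares of reads, C1 and B1 were nearly equal and A1 was highest, with an interval that did not overlap that of B1 but overlapped that of C1. Tsc2 encodes tuberin, the GTPase-activating subunit of the complex that holds mTOR back. The Tsc2 circle had 0 reads in C1, 0 in B1 and 39 in A1, or 0.945% (0.673 to 1.29%). The inhibitor's circle was thus seen in A1 alone, while that of the effector kinase was seen in each library.

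Both circles of the NF-kB branch were found in A1 alone. Map3k7 encodes TAK1, the kinase that activates the IκB kinase complex. Its circle had 0 reads in C1, 0 in B1 and 45 in A1, or 1.09% (0.797 to 1.46%), and ranked 10 of the 157 circRNAs of A1, just after Rps6kb1 at rank 9. Nfkb1 encodes the precursor of the NF-kB subunit p50. The Nfkb1 circle had 0 reads in C1, 0 in B1 and 22 in A1, or 0.533% (0.335 to 0.806%), and 56.7% of the circRNAs of A1 had more reads.

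**Figure D2:**
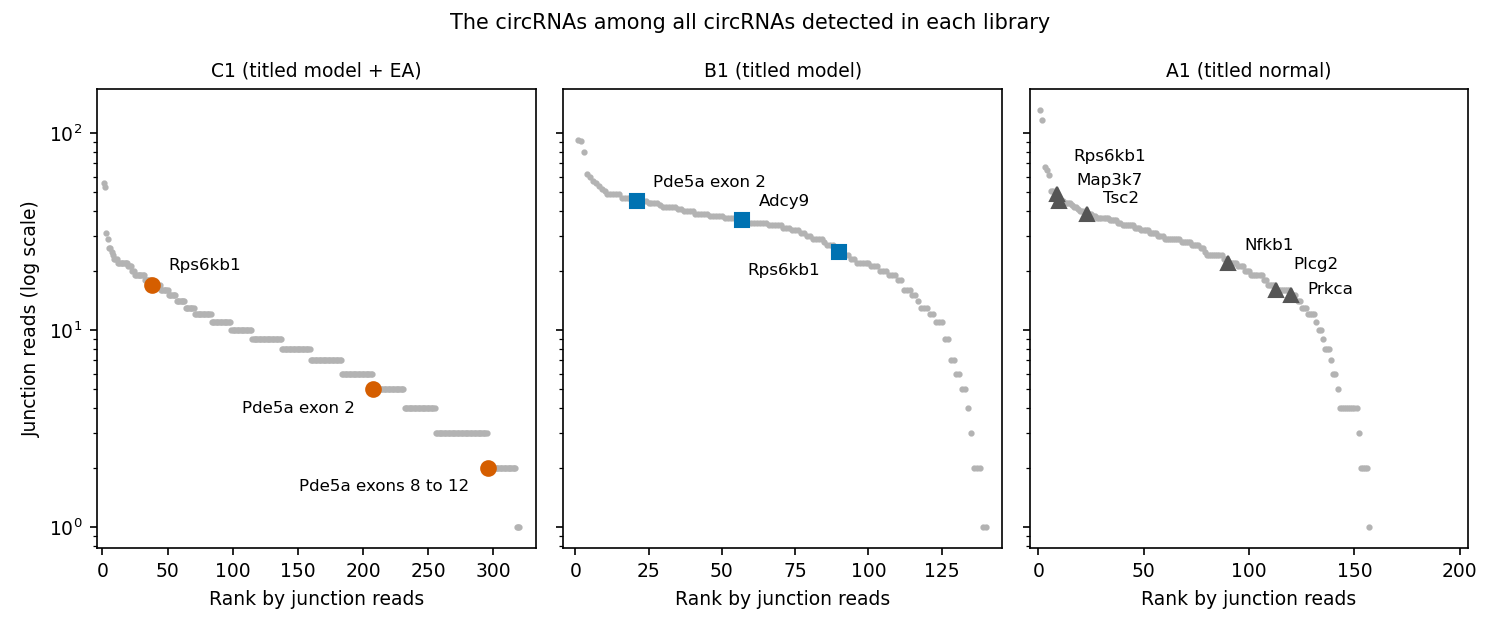
Junction reads (y axis, log scale) against rank (x axis) for all circRNAs detected in library C1 (titled model + EA, 320 circRNAs), B1 (titled model, 140) and A1 (titled normal, 157), with the named circRNAs as large symbols at the first rank of their count and the others in grey. Rps6kb1 ranked 38 in C1, 90 in B1 and 9 in A1.

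The comparison of C1 with B1 addresses the effect of EA on model mice by the titles, and by the sheets it sets normal against model + EA. Counts were multiplied by the authors' factor for each library, 1 for C1, 1.03 for B1 and 1.28 for A1, and a circRNA was called at a fold of at least 2, with 0.1 reads in place of 0. The exon 2 circle of Pde5a was lower in C1, at 0.107 times its B1 level (0.0333 to 0.270). Adcy9 was at least 12.4-fold lower in C1, a bound that puts 3 reads in place of 0. On the log2 scale this bound was -3.63 with the authors' factors, -2.55 with the TMM factors of edgeR and -2.58 with median-of-ratios factors. Rps6kb1 was not called, at 0.657 times its B1 level, with an interval (0.333 to 1.27) that includes no difference. The sign of its log2 ratio turned with the scaling, which gave -0.61 with the authors' factors and 0.48 with TMM factors. By this rule 2 of the 9 circles were lower in C1, against 23.1% of all 563 circRNAs, and 1 was higher, the Pde5a circle of exons 8 to 12 with its 2 reads, against 51.7%. With 3 reads in place of 0 the counts were 2 lower, against 22.4%, and 0 higher, against 29.8%. With 3 reads in place of 0, the median log2 ratio was -3.22 over the 3 circles with more than 3 reads in either library. This is the measured ratio of Pde5a exon 2. The median was 0.95 over the 366 such circRNAs of the table, of which 335 are bounds set by the reads of 1 library. The limit on reads also leaves out Pde5a exons 8 to 12, so the 2 medians do not give a measured contrast.

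The comparison of B1 with A1 addresses the model against normal mice by the titles, and EA against no EA in model mice by the sheets. Of the 9 circles, 6 were called lower in B1, against 25.9% of all circRNAs, and 2 were called higher, against 22.6%. Both counts were the same with 3 reads in place of 0, where the shares of all circRNAs were 24.0% lower and 20.8% higher. The 8 hosts also stand in the paper's lists of hosts changed by EA. By the sheets those lists rest in part on this pair of libraries, so the counts are not independent of them. The 6 lower circles covered the diacylglycerol, mTOR and NF-kB branches, with bounds of at least 18.5-fold for Map3k7, 16.0-fold for Tsc2, 9.04-fold for Nfkb1, 6.57-fold for Plcg2 and 6.16-fold for Prkca. Rps6kb1, with reads in both, was at 0.414 times its A1 level (0.245 to 0.683), or a log2 ratio of -1.27. It fell within 2-fold with no scaling (-0.97), with TMM factors (-0.73) and with median-of-ratios factors (-0.97), which left 5 circles called lower. The 2 higher circles were those of the cyclic nucleotide branch, at least 12.2-fold for Pde5a exon 2 and at least 9.74-fold for Adcy9. The median log2 ratio of B1 over A1 with 3 reads in place of 0 was -0.72 over 272 circRNAs, of which 259 are bounds. Over the 8 circles that passed the same limit of more than 3 reads it was -2.67. As 7 of the 8 values are bounds, this median is set by the reads of the library in which a circle was found, and is not a measured ratio.

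The comparison of C1 with A1 addresses model + EA against normal mice by the titles, and by the sheets it sets normal against model. Here 6 circles were again called lower in C1, against 27.0% of all circRNAs, and 2 higher, against 53.6%. The 2 called higher were both Pde5a circles, with 5 and 2 reads in C1 and 0 in A1, and with 3 reads in place of 0 there were 0 higher, against 26.3%, and 6 lower, against 24.9%. The exon 2 circle was at least 1.31-fold higher in C1. With the authors' factors the bounds were at least 19.1-fold lower for Map3k7, 16.6-fold for Tsc2, 9.35-fold for Nfkb1, 6.80-fold for Plcg2 and 6.38-fold for Prkca. With TMM factors the same bounds on the log2 scale were -2.63 for Map3k7, -2.42 for Tsc2, -1.59 for Nfkb1, -1.14 for Plcg2 and -1.04 for Prkca, the last close to the 2-fold limit. These bounds and those of B1 over A1 rest on the same A1 counts. Rps6kb1 was at 0.272 times its A1 level (0.147 to 0.481), and this call depended on the scaling: its log2 ratio of C1 over A1 was -1.88 with the authors' factors, -0.25 with TMM factors and -0.53 with median-of-ratios factors, both within 2-fold. The median log2 ratio of C1 over A1 with 3 reads in place of 0 was -2.77 over 7 circles, of which 6 are bounds. Over 393 circRNAs it was 0.39, and 375 of those values are bounds, so neither median is a measured ratio.

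Detection in a single library was the common pattern of the whole table. Reads in A1 alone were found for 135 circRNAs, or 24.0% of the table, the 5 named above included. Reads in B1 alone, the pattern of Adcy9, were found for 105 circRNAs (18.7%), and reads in C1 alone, the pattern of Pde5a exons 8 to 12, for 280 (49.7%). The pattern of Pde5a exon 2, with reads in C1 and B1 but not A1, was shared by 21 circRNAs (3.73%). Rps6kb1 belonged to the smaller group of 11 (1.95%) with reads in all 3 libraries, with Hba-a1, Strn3, Erbb2ip, Med12l, Ankib1, Med13l, Rnf169, Hbb-bt, Nfix and Adam10. With the authors' factors, A1 was the highest library for 7 of these 11, Rps6kb1 with 62.5 scaled reads among them, B1 was the highest for 4 and C1 for 0. This order depends on the scaling. The factors relative to C1 were 1.03 for B1 and 1.28 for A1, against 0.487 and 0.412 with TMM. The libraries were not ranked again with the TMM factors.

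The 8 circles other than Adcy9 began and ended at exon edges of their host transcript, and for all 8 the summed exon length equalled the deposited length. They were made of 1 to 11 exons and were 240 to 1394 nt long. Their median length was 358 nt, against 376 nt over the 454 other circRNAs of the table with both ends at exon edges. For 7 of the 8 the circle was entirely coding, against 77.3% of the others. The Tsc2 circle was the largest of the 8. Its 11 exons and 1394 nt held 26.1% of the tuberin coding region, and 97.4% of the other circRNAs were shorter. It was also the richest of the 8 in G and C, at 56.5%, against a median of 45.5% over the others.

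**Figure D3:**
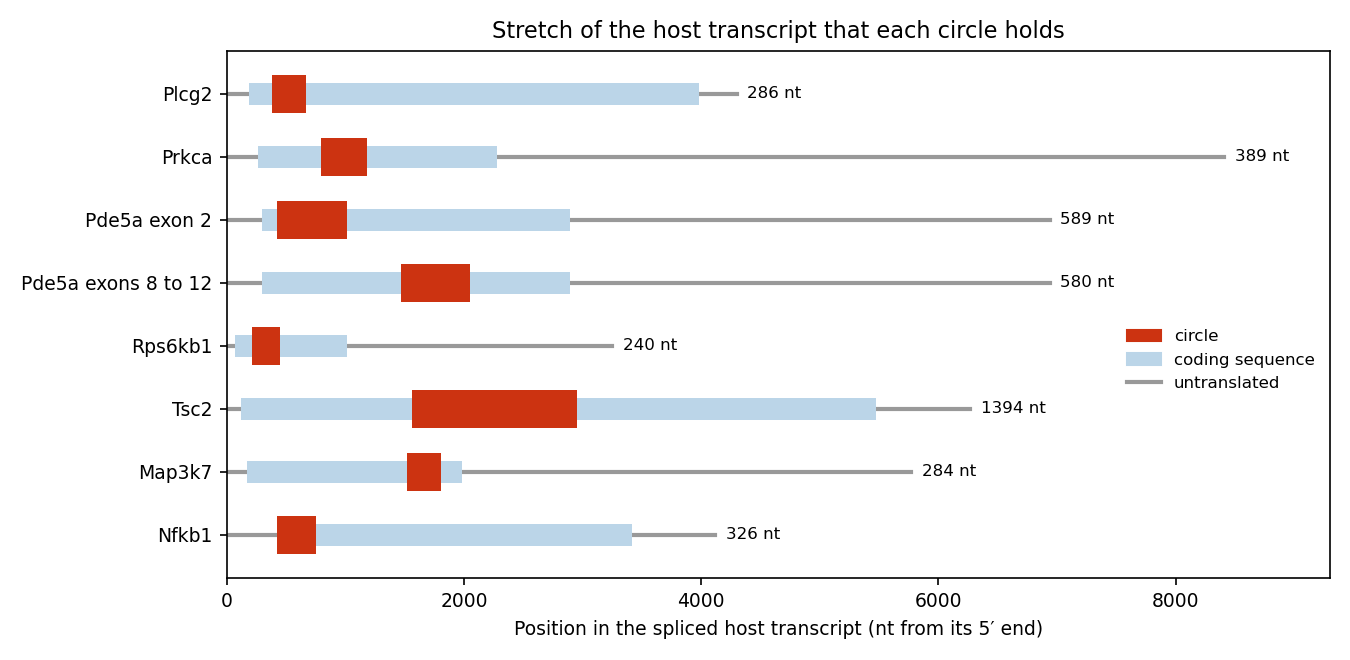
Position of 8 circles (red) within their spliced host transcripts, in nt from the 5′ end (x axis), with the coding sequence in blue and untranslated parts as grey lines. The label gives the length of the circle, and the Nfkb1 circle is the one that reaches into the 5′ UTR.

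The parts of the proteins that the circles cover differed between hosts. The Plcg2 circle covered codons 65 to 160 of 1265, within and just after the N-terminal lipid-binding PH domain, and the Prkca circle covered codons 177 to 306 of 672, which include most of the calcium-binding C2 domain. Pde5a exon 2 covered codons 41 to 237 of 865, in the N-terminal regulatory region, which also binds cGMP, and Pde5a exons 8 to 12 covered codons 390 to 583, from that region into the catalytic domain. Rps6kb1 exons 2 to 4 covered codons 48 to 127, which run from the N-terminal region into the start of the kinase domain. The Map3k7 circle covered codons 453 to 547 of 606, in the C-terminal region of TAK1. The Nfkb1 circle held 77 bases of 5′ UTR, the start codon and the first 83 codons of 971, which lead into the DNA-binding Rel homology domain.

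Rps6kb1 gave the shortest circle and the only one whose length was a multiple of 3. Its 240 nt were exons of 50, 121 and 69 nt, and 31.5% of the other circRNAs at exon edges also had a length that is a multiple of 3. Read in the frame of the host, its sequence met no stop codon on any turn around the circle, as for 27.1% of the other circRNAs. In the other 7 circles the host frame met a stop codon within 1.20 turns. The same 3 exons are exons 2 to 4 of both the 10-exon transcript that the table names and the 15-exon transcript with a coding region of 525 codons. The whole circle is shown because it was the one present in every library, with the middle exon in capitals.
Rps6kb1 circle: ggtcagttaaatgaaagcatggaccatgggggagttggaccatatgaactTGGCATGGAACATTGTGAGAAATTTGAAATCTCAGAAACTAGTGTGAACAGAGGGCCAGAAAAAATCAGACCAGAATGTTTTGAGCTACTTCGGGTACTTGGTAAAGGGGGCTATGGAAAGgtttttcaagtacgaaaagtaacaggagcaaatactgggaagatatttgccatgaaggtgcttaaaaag

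The introns that flank the circles were longer than the median of the other circRNAs for 6 of 8 circles upstream and 5 of 8 downstream. The median upstream intron was 15573 nt for the 8 circles, against 8724 nt for the others, and the median downstream intron was 10543 nt, against 5852 nt. Plcg2 had the longest upstream intron, 51601 nt, longer than that of 92.9% of the others, and Nfkb1 the longest downstream intron, 28756 nt. Tsc2 had the shortest introns of the 8, with 1179 nt upstream and 1084 nt downstream, and 9.49% and 9.91% of the others had shorter ones on those sides. Map3k7 also lay below both medians, with 8162 nt upstream and 2348 nt downstream, and Pde5a exons 8 to 12 below the downstream one, with 4988 nt. These are descriptions of 8 circles and were not tested.

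**Figure D4:**
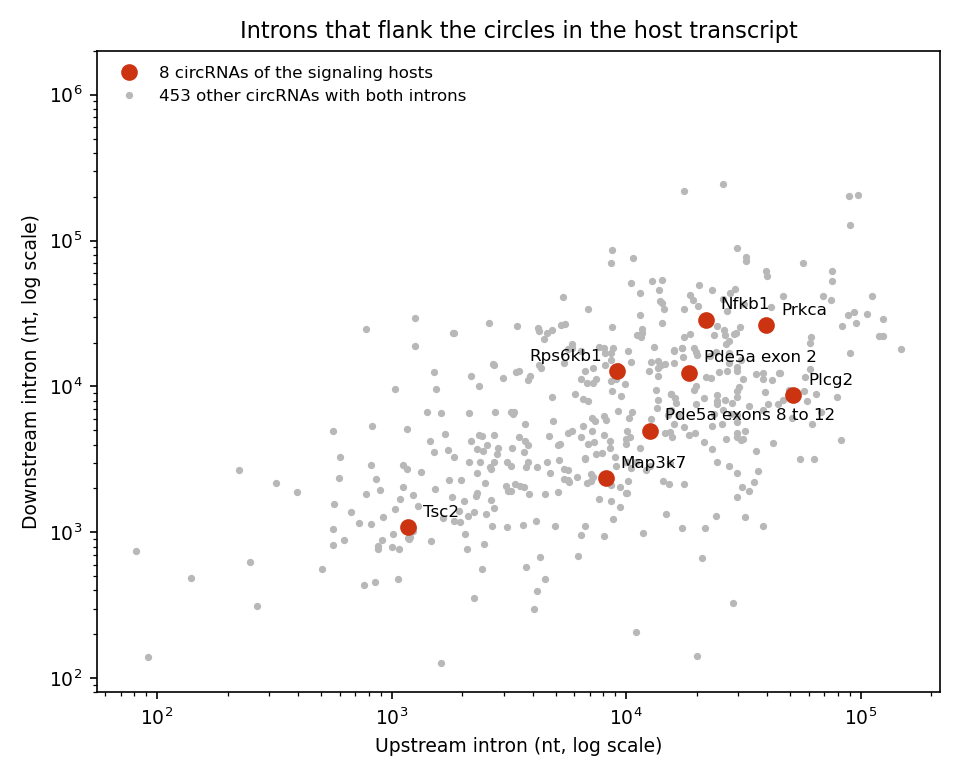
Length of the downstream intron (y axis, log scale) against that of the upstream intron (x axis, log scale) in the host transcript, for 8 named circRNAs (red) and 453 others with both introns (grey). Tsc2 lies at the lower left, at 1179 and 1084 nt, and Prkca and Nfkb1 lie at the upper right.

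Of the 9 circles, the 2 of Pde5a carried a circBase identifier (mmu_circ_0001165 for exon 2 and mmu_circ_0001167 for exons 8 to 12). This is 22.2%, against 21.7% of all circRNAs. Those of Plcg2, Rps6kb1 and Nfkb1 were known from another catalogue, and those of Prkca, Adcy9, Tsc2 and Map3k7 had no identifier from an earlier catalogue, 4 of 9 or 44.4%, against 39.1% of all circRNAs. Pde5a was among the 72 hosts with 2 or more circles in the table. The qRT-PCR primers that the study used for Pde5a can tell its 2 circles apart, and they are shown in lower case.
Pde5a forward primer: cagccgcctctttgatgt
Pde5a reverse primer: ccttccttgcacacaggg
In the exon 2 circle the forward primer matched bases 451 to 468 and the reverse primer matched the other strand at bases 43 to 60, counted from the first base of the exon, so that they point away from each other in linear RNA. They frame a product of 199 nt that runs through the junction shown above. Neither primer matched the circle of exons 8 to 12, so that assay reports on the circle with 5 reads in C1, 45 in B1 and 0 in A1.

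The study also lists miRNAs beside several of these circles, paired by target prediction with TargetScan and miRanda. Such prediction uses seed complementarity, so the choice of pairs favours a match, and the counts of matches are given only as a description. The pairs listed for the Adcy9 circle were left out, because its sequence could not be read. For the other listed circles, mature sequences from RefSeq were found for 26 of 30 pairs. Each of these circles was searched on its own strand for the complement of bases 2 to 8 of the miRNA, the seed. A match was present in 25 of 26 pairs, and the exception was Nfkb1 with miR-34a-5p. Windows of the same length in the other circles held the same letters in 0.971 to 18.7% of cases, depending on the seed. For Tsc2 only 12 other circles were long enough to give such windows. The pair with the rarest letters was Tsc2 with miR-7222-3p, whose match GTCCTGG was present 2 times in the circle. Capitals mark the seed and its match below.
miR-7222-3p: uCCAGGACagugggcaggagcag
Tsc2 circle, from base 236: tgaagaccgcgGTCCTGGggctcctggtc
Within the Tsc2 circle the matches of miR-214-3p (CCTGCTG) and miR-1906 (CTGCTGC) overlapped, as did those of miR-7001-5p (CCCTGCC) and miR-6998-5p (CTGCCCA), so they are not independent of each other. A match is a description of letters and not a site of binding.

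Other hosts of the same pathways were also searched. The 4 pathway lists named 23 further circles of 18 hosts, of which 17 were detected in C1 with 134 reads, 6 in B1 with 170 reads and 4 in A1 with 157 reads. C1 also held the most circRNAs over the whole table, 56.8% of the 563, against 24.9% in B1 and 27.9% in A1. In the comparison of C1 with A1, 16 of the 23 were called higher (69.6%, against 53.6% of all circRNAs) and 4 lower (17.4%, against 27.0%). In the comparison of C1 with B1, 15 were higher (65.2%, against 51.7%) and 4 lower (17.4%, against 23.1%). In that of B1 with A1, 5 were higher (21.7%, against 22.6%) and 4 lower (17.4%, against 25.9%).

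Of the phospholipase C, diacylglycerol and calcium list, 11 of 80 genes hosted circles. Slc8a1, the sodium-calcium exchanger, had 0 reads in C1, 0 in B1 and 29 in A1, and Ahcyl1, which modulates the inositol trisphosphate receptor, had 0 in C1, 0 in B1 and 19 in A1, the pattern of Plcg2 and Prkca. Gnaq, the G protein subunit that activates phospholipase C, had 9 reads in C1 alone, and Dgkd, Ppp3ca, Ahcyl2, Prkd2 and Nfatc3 had 2 to 6 reads in C1 alone. The Plcl2 circles had 9 reads in C1 and 11 in B1 for one, and 2 in C1 alone for the other. Of the cyclic nucleotide list, 3 of 67 genes hosted circles, and the only host beside Adcy9 and Pde5a was Akap7, an anchor of protein kinase A, with 0 reads in C1, 45 in B1 and 0 in A1. The circles of Adcy9 and Akap7 and the exon 2 circle of Pde5a had their highest count in B1. The Pde5a circle of exons 8 to 12 had 2 reads in C1 alone. Adcy9 and Pde5a are among the chosen hosts, so Akap7 was the only further host. Of all circRNAs, 18.7% had reads in B1 alone.

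Of the mTOR list, 5 of 72 genes hosted circles. Ralgapa2, a subunit of a complex related in sequence to the Tsc complex, had 37 reads in B1 alone, Ralgapa1 had 10 in C1 alone, and the Map4k3 circles had 14 and 6 in C1 alone. Of the NF-kB list, 7 of 66 genes hosted circles. Of the circles of Erbb2ip, a scaffold protein, one had 21 reads in C1, 9 in B1 and 65 in A1, another had 44 in A1 alone and the last had 19 in B1 alone. Optn, an autophagy receptor that binds ubiquitin chains, had 4 reads in C1, 49 in B1 and 0 in A1, the pattern of Pde5a exon 2. Btrc, Rbck1 and Xiap, ubiquitin ligase components, had 7 to 12 reads a circle in C1 alone.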

How the data were processed

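The authors, per the labels, depleted exosomal RNA of rRNA and made stranded libraries. Their notes and methods name cutadapt 1.9.3 for trimming, STAR 2.5.1b for alignment to mm10, DCC to find circRNAs and circBase for annotation. For each library the deposited table holds the count of junction reads of every circRNA and a log2 value. The deposited log2 values were checked against the counts: each equalled log2 of the count after multiplication by a factor of its library, with 0.1 in place of 0. The sources used here do not say what the factors rest on. All sample columns were mapped (0 unmapped). Shares have exact binomial intervals and ratios exact intervals from the split of reads, at the 95% level. Calls used a fold of 2, and folds against 0 used 3 reads. The 12 alternatives included TMM factors (edgeR 4.0.16). The rule for calls and the intervals were also checked on simulated counts. Sequences came from GENCODE M21 and RefSeq (GRCm38), and exon numbers follow the transcript named in the table. Python 3.11.15, scipy 1.17.1 and R 4.3.3 were used. All 9 circles of the 8 hosts, and all hosts found from the 4 lists, are named. Members and lists were chosen with earlier results of these data known.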

Additional observations from a re-analysis of the deposited data

How the results depend on the processing

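The counts of called circles were recomputed under 12 alternatives. With groups as the sheets name them, model + EA against model had 2 circles higher and 6 lower, model against normal 6 higher and 2 lower, and model + EA against normal 2 higher and 1 lower. For model + EA against model the count of circles higher was 0 with 3 reads in place of 0, with a minimum of 10 or of 20 reads, with the exact interval beyond 2-fold, and with reads summed per host. For model + EA against normal the count higher was 0 under the same alternatives except host sums, where it was 1. Of the 72 recomputed counts 57 stayed within 1.5 times.

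Under the sheets' names 10 log2 ratios turned sign. For model + EA against model these were Adcy9 (3.28) and Pde5a exon 2 (3.61). For model against normal they were Rps6kb1 (1.88), Prkca (2.67), Tsc2 (4.05), Pde5a exon 2 (-0.39), Nfkb1 (3.23), Map3k7 (4.26) and Plcg2 (2.77), and for model + EA against normal Rps6kb1 (0.61). The uncalled Rps6kb1 ratio of C1 over B1 was 0.03 with total reads, 0.48 with TMM and 0.44 with median-of-ratios factors, against -0.61 with the authors' factors. TMM factors moved the log2 ratio of every circRNA by 1.09 for C1 over B1, 0.54 for B1 over A1 and 1.63 for C1 over A1. No paired analysis was possible because each group had 1 library, and no library could be left out for the same reason. Counts of 2 to 5 reads, as for Pde5a in C1, are at the limit of this depth.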
